A study of Mus musculus with 6 samples.

Results

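The shores described here were the covered CpG cytosines of the autosomes that lay more than 1 kb and at most 3 kb from the nearest transcription start. They were chosen by position alone, with distances measured to the starts of all GENCODE M21 transcripts on mm10, and methylation values played no part in the choice. They came to 73231 of the 890041 cytosines in the data, or 8.23%, at 63648 CpG positions next to the starts of 10057 genes. At 3 of them the reference sequence shows no CpG. Of all shore cytosines, 28150 lay upstream of their nearest start and 45079 lay downstream of it, in the direction of transcription, and 2 had starts at the same distance on both sides. Most of them (73.3%) had a protein-coding gene as their nearest start. The libraries were made by RRBS (reduced representation bisulfite sequencing) and came from the dissected dentate gyrus, a part of the hippocampus, of 6 female C57BL/6JRj mice aged 4.5 months, of which 3 were kept in standard cages (STD) and 3 in an enriched environment (ENR). The labels name no transgene or engineered allele. Per the study's methods, the ENR mice of an experiment lived together in an enclosure and STD mice in groups in cages, so the effect of ENR and that of the shared enclosure cannot be told apart. RRBS cuts DNA with MspI at CCGG, which favours CpG-rich sequence, and how many reads stand behind a given percentage is unknown, apart from the minimum of 10 that the authors set.

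Methyl groups on CpG cytosines are placed by DNA methyltransferases and removed with the help of TET enzymes. The start regions of many genes are CpG-rich and stay free of methylation, whereas most CpGs far from genes are methylated, and the flanks between these states, often called shores, vary more between tissues than the starts do. The term usually refers to the flanks of CpG islands, but here it refers only to the distance from a transcription start. Bisulfite treatment does not separate methylated from hydroxymethylated cytosines, and the dentate gyrus, although rich in granule neurons, also holds glia, stem cells and other neurons. A change in the make-up of the tissue and a change within 1 cell type cannot be told apart in such samples.

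The reference sequence shows what these shores look like. The windows below are 150 bp of the plus strand of GRCm38 (mm10) from RefSeq, and capitals mark the CpGs covered in the data. The shores of Adamts1 and Plekha6 are shown because their sides differed most, in opposite directions, among the 149 genes with at least 10 cytosines in each shore. Adamts1, which encodes a secreted metalloproteinase and is read from the minus strand, had a nearly unmethylated upstream window at chr16:85804191-85804340 (intergenic, mean 2.39% over 10 sites) and a methylated intronic downstream window at chr16:85797864-85798013 (93.5% over 6 sites). Plekha6, a gene of the pleckstrin homology domain family on the plus strand, had the reverse arrangement, with 80.2% over 5 intergenic sites at chr1:133162915-133163064 upstream and 2.02% over 8 intronic sites at chr1:133182500-133182649 downstream. These last windows lie beside different starts of the gene.
Adamts1 upstream: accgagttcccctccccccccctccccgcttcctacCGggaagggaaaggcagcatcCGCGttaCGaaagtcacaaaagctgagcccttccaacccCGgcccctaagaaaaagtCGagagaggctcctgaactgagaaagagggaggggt
Adamts1 downstream: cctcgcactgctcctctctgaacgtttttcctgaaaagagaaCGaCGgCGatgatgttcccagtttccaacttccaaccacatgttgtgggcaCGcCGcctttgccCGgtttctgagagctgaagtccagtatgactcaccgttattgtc
Plekha6 upstream: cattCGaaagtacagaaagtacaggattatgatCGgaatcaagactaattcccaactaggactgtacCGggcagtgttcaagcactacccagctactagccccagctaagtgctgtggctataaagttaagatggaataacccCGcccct
Plekha6 downstream: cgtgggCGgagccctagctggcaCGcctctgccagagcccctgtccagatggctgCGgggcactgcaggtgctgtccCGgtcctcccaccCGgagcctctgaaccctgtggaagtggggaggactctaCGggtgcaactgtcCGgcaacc

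The intron of Gdnf, which encodes a neurotrophic factor, is shown because its shore lost methylation with distance. The near window at chr15:7812266-7812415, which lay 1438 to 1551 bp downstream of the start, had a mean of 43.9% over 8 sites. The far window at chr15:7813108-7813257, which lay 2269 to 2405 bp from it, had 1.68% over 21 sites. The near window held 7 CpGs and the far window 14.
Gdnf near: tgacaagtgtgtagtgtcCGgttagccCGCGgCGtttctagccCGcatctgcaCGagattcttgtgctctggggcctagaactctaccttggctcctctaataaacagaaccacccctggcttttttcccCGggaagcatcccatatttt
Gdnf far: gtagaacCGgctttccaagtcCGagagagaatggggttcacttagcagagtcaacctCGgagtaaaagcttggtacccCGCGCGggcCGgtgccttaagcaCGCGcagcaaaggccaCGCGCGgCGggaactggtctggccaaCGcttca

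The last set is shown because these shores differed between the housing groups in the sense that their values did not overlap. The window of 1810010H24Rik lies in coding sequence at chr11:107029623-107029772. Those of Gm29442, a long non-coding RNA gene, and Togaram2 lie in an exon at chr7:16618691-16618840 and in an intron at chr17:71674999-71675148. The Gm29442 window holds 10 of the 11 cytosines of its shore, with 1.56% in STD and 3.76% in ENR. The Togaram2 window holds 16 of 17, with 10.6% in STD and 18.7% in ENR. In each, the cytosine left out is the one that differed most between the groups, by 26.2 and 34.2 points.
1810010H24Rik downstream: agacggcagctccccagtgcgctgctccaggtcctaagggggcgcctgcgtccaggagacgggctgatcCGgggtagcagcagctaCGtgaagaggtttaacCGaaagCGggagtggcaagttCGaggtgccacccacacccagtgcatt
Gm29442 downstream: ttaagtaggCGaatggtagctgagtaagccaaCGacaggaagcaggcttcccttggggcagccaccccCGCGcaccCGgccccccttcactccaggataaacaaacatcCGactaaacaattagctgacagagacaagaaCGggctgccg
Togaram2 downstream: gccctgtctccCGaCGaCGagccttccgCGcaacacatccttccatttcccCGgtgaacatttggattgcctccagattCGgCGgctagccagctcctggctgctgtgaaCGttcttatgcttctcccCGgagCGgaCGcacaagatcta

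Shores were intermediate in methylation between the starts and the remainder of the genome. The mean over all shore cytosines was 31.4%, 31.1% and 28.8% in the STD libraries and 31.3%, 30.9% and 27.1% in the ENR libraries. The mean over the 6 libraries was 30.1% ± 1.75 (SD), compared with 5.89% ± 0.297 within 1 kb of a start and 54.1% ± 2.66 beyond 3 kb. Of the shore values 59.1% were under 20%, 18.5% were over 80% and 22.4% lay between, against 5.20% between these limits within 1 kb of a start. The limits of the range did not coincide with a step in the data. In the 100 bp on the inner side of the near limit the mean was 18.5%, and in the 100 bp before it 17.1%. At the far limit these values were 38.9% inside and 41.4% outside.

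Methylation rose with distance on both sides of the start, and did so over a longer stretch downstream. Upstream it went from 25.2% ± 1.61 (SD, n = 6) at 1.0 to 1.2 kb to 39.1% ± 2.12 at 1.8 to 2.0 kb and then changed little, reaching 41.3% ± 2.0 at 2.8 to 3.0 kb. Downstream it began at 17.7% ± 1.05, passed 31.1% ± 1.92 at 1.8 to 2.0 kb and ended at 38.04% ± 2.34. In each library the outer shore (beyond 2 kb) was more methylated than the inner shore, by 12.0, 11.9 and 10.9 percentage points in STD and by 11.9, 11.7 and 10.5 points in ENR. The mean difference was 11.5 ± 0.615 points and was positive in 6 of 6 libraries (two-sided exact sign-flip permutation test, p = 0.031, the smallest that 6 libraries allow). It was 7.80 ± 0.415 points upstream and 13.3 ± 0.753 points downstream. The downstream rise exceeded the upstream rise by 5.48 ± 0.459 points, again in all 6 libraries (exact sign-flip permutation test, p = 0.031). The libraries share the same sites, so this test covers the spread between mice and not the choice of sites.

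**Figure D1:**
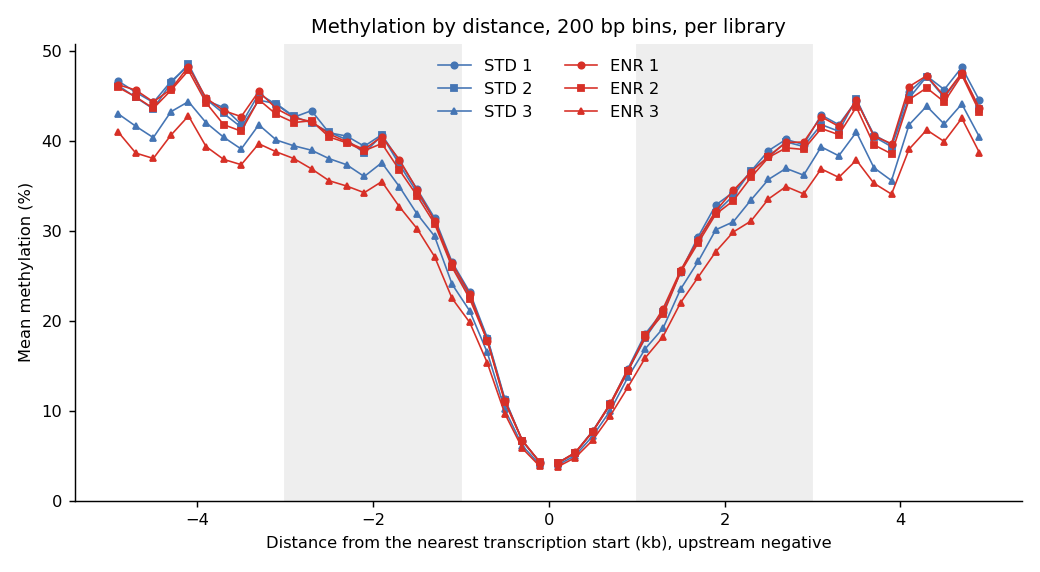
Mean methylation in percent (vertical axis) in 200 bp bins of distance from the nearest transcription start in kb (horizontal axis, upstream negative), 1 line per library with STD in blue and ENR in red and symbols for the replicate number. Grey areas mark the shores, where methylation climbed from 25.2% to 41.3% upstream and from 17.7% to 38.04% downstream, with ENR replicate 3 lowest and STD replicate 3 next.

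With distance, low values became less frequent, and both intermediate and high values more frequent. Downstream, the share of values under 20% fell from 68.3% ± 2.16 in the inner shore to 51.1% ± 3.28 in the outer shore, while the share of 20 to 80% went from 18.9% ± 1.26 to 26.1% ± 1.85 and that over 80% from 12.8% ± 0.935 to 22.8% ± 1.45. Upstream, the share under 20% was 57.4% in the inner and 47.3% in the outer shore, that of 20 to 80% was 22.6% and 26.8%, and that over 80% was 19.99% and 25.9%. Mean methylation also rose inside shores of the same gene and side. Among 759 gene shores with at least 3 cytosines on both sides of the 2 kb mark, the outer mean was higher in 473 and lower in 286. The mean difference within these shores was 5.70 ± 0.565 points over the 6 libraries (exact sign-flip permutation test, p = 0.031), and the median shore differed by 1.82 points.

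Shores upstream of a start were more methylated than shores downstream of one. Upstream means were 36.3%, 35.9% and 33.4% in STD and 36.01%, 35.6% and 31.4% in ENR, and downstream means were 28.4%, 28.1% and 26.0% in STD and 28.3%, 27.9% and 24.4% in ENR. Each upstream value lay above each downstream value. The gap was 7.57 ± 0.318 points (SD, n = 6) and ranged from 7.0 to 7.86 points (exact sign-flip permutation test, p = 0.031). It was not even along the shore. In the 5 bins up to 2 kb it was 7.55 to 9.95 points, and in the 5 bins beyond 2 kb it was 2.31 to 4.89 points. Upstream exceeded downstream in all 10 bins and in every library. By autosome, the upstream side was higher on 18 of 19, and the gap ran from -1.46 to 20.8 points.

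**Figure D2:**
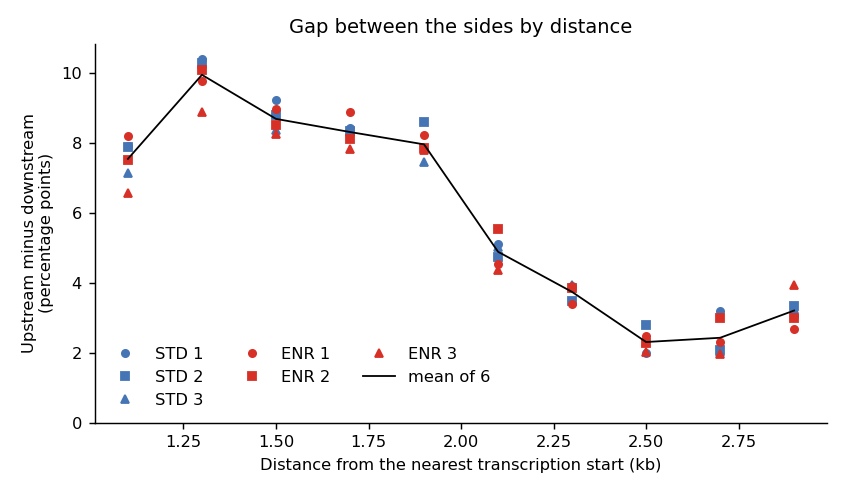
Upstream minus downstream methylation in percentage points (vertical axis) in each 200 bp bin of distance in kb (horizontal axis), with 1 point per library and a line for the mean of 6. All points lie above 0, and the mean drops from 7.96 points just below 2 kb to 4.89 points just above it.

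Genes covered on both sides showed a smaller gap. Of 735 genes with at least 3 cytosines in each shore, the upstream shore was higher in 429 and the downstream shore in 306, and in 236 genes both shores were under 20%. The upstream shore was more than 25 points higher in 181 genes and the downstream shore in 128. The mean within-gene gap was 4.49 ± 0.406 points (exact sign-flip permutation test over the 6 libraries, p = 0.031) and the median gap was 2.25 ± 0.294 points. Another start nearby was accompanied by a smaller gap. It was 9.70 ± 0.42 points where no other gene began within 5 kb and 2.23 ± 0.21 points where one did.

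The sides differed in sequence as well. Island-like cytosines were those with 50% or more of G and C within 100 bp on either side and with a number of CpGs there of 0.6 or more of that expected from the base content. This applied to 30.4% of upstream and 40.7% of downstream shore cytosines, and the mean number of CpGs in this window was 8.83 upstream and 10.6 downstream. Methylation fell steeply with that number, from 50.5% ± 3.56 at 1 to 4 CpGs to 39.4% ± 2.20 at 5 to 8, 24.2% ± 0.92 at 9 to 12, 11.04% ± 0.50 at 13 to 16 and 4.63% ± 0.22 at 17 or more. Island-like shore cytosines had 11.3% ± 0.43 and the others 41.1% ± 2.52. With the number of CpGs held equal, the gap between the sides was 2.99 ± 0.0419 points and the outer minus inner difference 6.71 ± 0.267 points. Both remained positive in 6 of 6 libraries (exact sign-flip permutation test, p = 0.031). This comparison was added after the data were seen.

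Annotation divided the shores further. In coding exons, upstream cytosines had 45.1% ± 1.56 and downstream cytosines 24.6% ± 1.13, a gap of 20.4 ± 0.45 points. In introns these values were 37.7% ± 2.39 and 25.4% ± 1.84. The order was the reverse outside genes, where upstream cytosines had 31.2% ± 1.71 and downstream cytosines 46.4% ± 2.18. Upstream cytosines in a coding exon lie in another gene or ahead of an alternative start of the same gene, and downstream cytosines outside genes lie past the end of the transcript. In other exons the sides differed by -0.39 ± 0.56 points (exact sign-flip permutation test, p = 0.1875). Such exact tests were run for 40 classes of sites, which overlap in part. The gap between the sides passed an adjusted p of 0.05 (Benjamini-Hochberg) in 37 of them, with upstream higher in 32 and downstream higher in 5. The outer minus inner difference passed in 39, with the outer part higher in 35 and the inner part higher in 4. The smallest adjusted values were 0.0338 and 0.0321. Any difference of the same sign in all 6 libraries reaches the smallest p of this test, and most classes tie there. Passing therefore does not speak for the size of a difference, and the test does not cover the choice of sites.

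**Figure D3:**
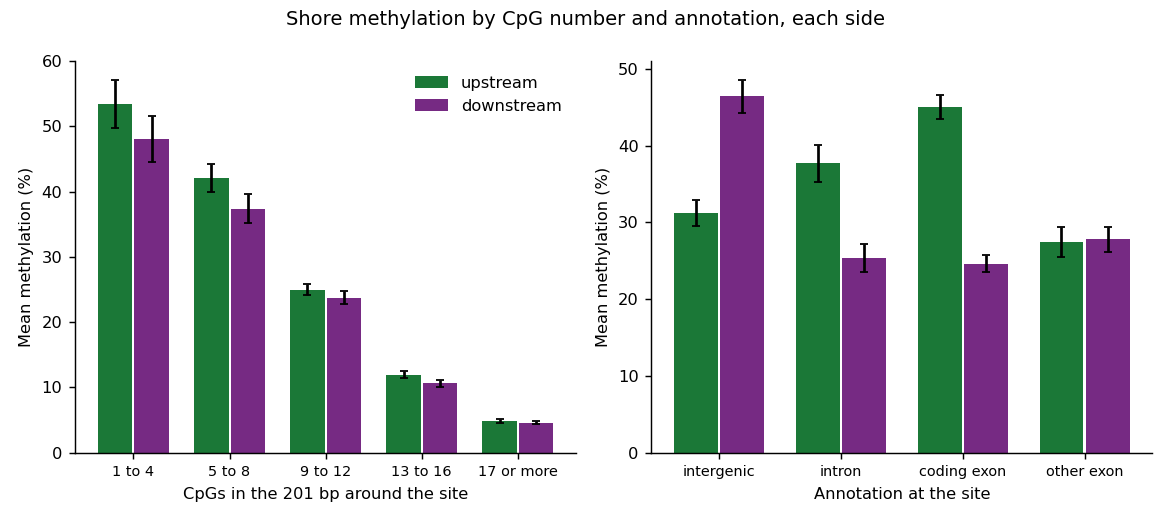
Mean shore methylation in percent (vertical axes) of upstream (green) and downstream (purple) cytosines by the number of CpGs within 100 bp of them (left) and by annotation (right), with bars for the mean of 6 libraries and error bars for their SD. Methylation falls to 4.80% upstream and 4.56% downstream at 17 or more CpGs, and intergenic sites are the class in which downstream is clearly higher, at 46.4% against 31.2%.

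Levels and gaps differed by kind of gene. Next to protein-coding genes the mean was 26.9% ± 1.63 and the gap 9.66 ± 0.48 points, upstream higher. Next to lincRNA genes the sides differed by 0.07 ± 0.31 points (exact sign-flip permutation test, p = 0.71875). The downstream side was the higher one next to antisense genes (33.8% against 26.1%), miRNA genes (32.6% against 26.0%) and processed pseudogenes (61.7% against 57.8%), and in the pooled class of other gene kinds (58.3% against 48.0%). Next to snRNA genes the order was that of protein-coding genes with a wider gap, at 58.2% upstream and 36.5% downstream, over 647 cytosines, and their outer minus inner difference was -9.56 ± 1.02 points. Processed pseudogenes, which are retrotransposed copies of mRNAs and usually lack a promoter of their own, had the most methylated shores of these classes (59.9% ± 2.37), with an outer minus inner difference of -0.76 ± 0.46 points. The class called processed transcript had the least methylated shores (21.3% upstream and 15.96% downstream).

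The state of the start itself went along with that of its shore. For genes whose cytosines within 1 kb averaged under 20%, the shore had 21.7% ± 1.43 and rose by 12.5 ± 0.73 points from inner to outer. For genes with starts of 20 to 80% the shore had 45.4% ± 2.54 and rose by 1.72 ± 0.37 points. For genes with starts over 80% it had 61.7% ± 2.67 and was lower in the outer part, by -8.20 ± 1.21 points. Cytosines in repeats, which made up 8.08% of the shores, had 58.9% ± 2.05 and the others 27.6% ± 1.72.

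Housing was compared next, since the study asked whether life in ENR alters methylation in the dentate gyrus. Shore methylation was 30.5% ± 1.43 (SD, n = 3) in STD and 29.7% ± 2.29 (n = 3) in ENR. The difference was -0.713 points and lay within the spread of each group (exact permutation test, two-sided, p = 0.6, where 3 against 3 libraries allow no p below 0.1). ENR replicate 3 was the lowest library and STD replicate 3 the next, and the other 4 lay within 30.9 and 31.4%. Without ENR replicate 3 the difference turned to 0.603 points. In 200 bp bins the ENR mean was below the STD mean in 20 of 20 bins, by -1.12 to -0.283 points, but the groups overlapped in each of them and the smallest p was 0.5 (exact permutation test, 0.778 after Benjamini-Hochberg adjustment over 20 bins). Without ENR replicate 3 it was lower in 0 bins. The gap between the sides was 7.69 ± 0.236 points in STD and 7.45 ± 0.396 points in ENR (exact permutation test, p = 0.5). The outer minus inner difference was 11.6 ± 0.601 and 11.4 ± 0.739 points (exact permutation test, p = 0.5).

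The low level of the libraries numbered 3 was not the same at all shore sites. Of the shore cytosines, 36.4% were in a CCGG, the sequence that MspI cuts. At these the means were 39.4%, 39.0% and 34.6% in STD and 39.0%, 38.2% and 31.7% in ENR. At the other cytosines they were 26.9%, 26.5% and 25.5% in STD and 26.8%, 26.6% and 24.5% in ENR. ENR replicate 3 thus differed from the other ENR libraries by -6.91 points in CCGG and by -2.25 points elsewhere, and STD replicate 3 differed from the other STD libraries by -4.57 and -1.24 points. Among sites with a mean of 20 to 80%, where there is room for a change in either direction, ENR replicate 3 had 33.8% in CCGG against 52.1% in the other ENR libraries, and 40.8% against 49.4% outside it. The difference between the groups was -1.39 points in CCGG (exact permutation test, p = 0.5) and -0.325 points elsewhere (exact permutation test, p = 0.8). The part of the cut site in the low values was not tested. The gap between the sides (7.41 ± 0.12 points) and the outer minus inner difference (11.7 ± 0.41 points) were close to their overall values when sites in CCGG were left out.

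**Figure D4:**
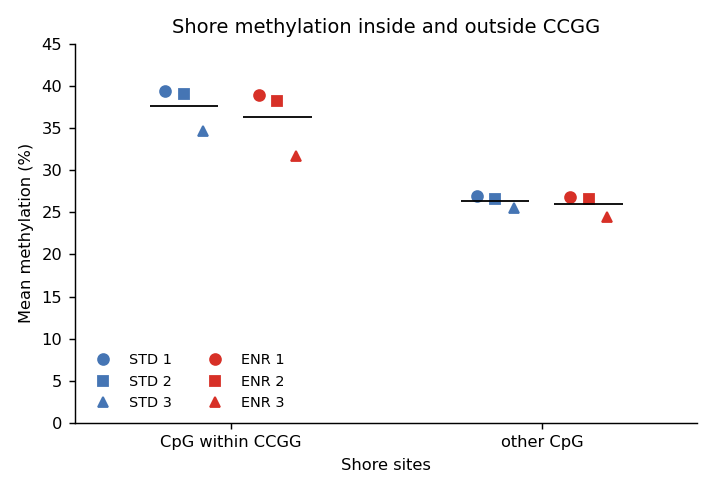
Mean shore methylation in percent (vertical axis) at CpGs within CCGG and at other CpGs (horizontal axis), 1 point per library with STD in blue and ENR in red, symbols for the replicate number and lines for the group means. The libraries numbered 3 stand at 34.6% and 31.7% in CCGG, below the other 4 at 38.2% or more, and at 25.5% and 24.5% elsewhere.

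The share of shore values at exactly 0 was 32.9%, 33.7% and 39.1% in STD and 36.6%, 41.0% and 41.8% in ENR. The share at exactly 100% was 7.46%, 7.30% and 10.9% in STD and 9.11%, 10.9% and 11.3% in ENR. The groups overlapped in both measures (exact permutation tests, p = 0.2 and p = 0.3). Read numbers were not part of the values used here, and their part in these shares was not tested.

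No shore cytosine passed a test across the whole table. A limma fit to all 615152 cytosines that varied between libraries called 0 of 61416 shore cytosines at an adjusted p under 0.05 and a difference over 25 points, against 0% of all cytosines, and the smallest adjusted p in a shore was 0.852. On simulated data the fit at single cytosines missed even very large changes unless a great many cytosines changed, so the absence of calls does not show that no cytosine differed. At an unadjusted p under 0.05 there were 1974 shore cytosines, or 3.21%, against 2.68% of all cytosines. By size alone, the group means differed by more than 25 points at 2299 shore cytosines, or 3.14%, against 1.94% of all cytosines. It was 0.565% within 1 kb of a start and 4.16% beyond 3 kb, and 3.47% and 2.93% in upstream and downstream shores. Sites with a mean of 20 to 80% made up 22.3% of the shores, 3.99% of the sites within 1 kb and 31.0% of those beyond 3 kb. Among such sites alone the share over 25 points was 11.8% in shores, against 11% of all of them, 10.9% within 1 kb and 11.3% beyond 3 kb. Of the 2299 sites, 1440 were lower in ENR (1.97%, against 1.23% of all cytosines) and 859 were higher (1.17%, against 0.706%), so that 62.6% were lower, against 63.6% over the whole table. In 959 of them, or 1.31% of shore cytosines against 0.81% of all, the groups did not overlap. Without ENR replicate 3 the share lower in ENR was 40.4%, and the number of sites over 25 points was 3884 without ENR replicate 1 and 3552 without ENR replicate 2. In intermediate shore sites the SD between mice averaged 16.02 points in STD and 19.5 points in ENR.

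Shores were then taken as units, each being all shore cytosines on 1 side of the starts of 1 gene. There were 6986 with at least 3 cytosines, 2959 upstream and 4027 downstream, with a median of 5. Their means fell into 38.2% under 20%, 37.4% of 20 to 80% and 24.3% over 80%. Among the 6977 that varied, limma called 0 at an adjusted p under 0.05, against 0% of all segments. At an unadjusted p under 0.05 there were 373, or 5.35%, against 3.86% of all segments, with 253 lower in ENR (3.63%, against 2.52% of all segments) and 120 higher (1.72%, against 1.34%). The direction was not stable, since 212 of 416 were lower after quantile normalization and 218 of 487 without ENR replicate 3. Of the 4196 shores with at least 5 cytosines, the groups did not overlap in 376, or 8.96%, against 8.6% of all segments of that size. Of these, 230 were lower in ENR (5.48%, against 5.32% of all segments) and 146 higher (3.48%, against 3.28%). Both shares were near the background. The shores named next were, in each direction, the 5 with the lowest unadjusted limma p among these 376, and each had a limma adjusted p of at least 0.99993.

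Of the 5 named shores lower in ENR, the one with the widest margin was that of 1810010H24Rik, in coding sequence 1469 to 1523 bp downstream of a start on chromosome 11. Its means were 54.4%, 70.6% and 65.3% in STD and 27.3%, 33.4% and 34.4% in ENR, a difference of -31.7 ± 6.08 points (SE). All 5 cytosines, which are the capitals of the window printed above, were more than 25 points lower in ENR, the least by -26.8 points. The start region of the gene held 35 upstream cytosines with 1.58% in STD and 1.86% in ENR. The other shores of this group had low levels. Gsx2, a homeobox gene of ventral forebrain progenitors, had 10.4%, 10.8% and 8.72% in STD and 0.673%, 4.01% and 2.17% in ENR over 9 downstream cytosines, and 8 of them were lower in ENR. Trim8, which encodes a RING-type ubiquitin ligase, had 3.93%, 4.70% and 2.75% in STD and 0%, 0.490% and 0% in ENR over 17 downstream cytosines, of which 7 were lower in ENR, 1 was higher and 9 were equal. Its upstream shore of 26 cytosines had 1.81% in STD and 3.02% in ENR, and the groups overlapped there, while 33 cytosines within 1 kb upstream of its starts had 1.03% in STD and 2.0% in ENR without overlap. Kmt2a, which encodes a histone H3 lysine methyltransferase, had 3.40% ± 0.433 in STD and 0.490% ± 0.376 in ENR over 6 cytosines, of which 3 were lower in ENR, 1 was higher and 2 were equal. The lincRNA gene Gm48807 had 9.24% ± 0.965 and 3.21% ± 1.69 over 24 upstream cytosines.

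Among the 5 named shores higher in ENR, Togaram2, which encodes a microtubule-associated TOG domain protein, had the widest margin. Its intronic shore had 10.1%, 12.9% and 11.1% in STD and 21.5%, 19.8% and 21.6% in ENR over 17 cytosines, of which 13 were higher in ENR, a difference of 9.61 ± 2.21 points (SE). Next was Gm23299, a snoRNA gene, with 9.46%, 11.3% and 8.35% in STD and 19.7%, 19.0% and 18.4% in ENR over 5 upstream cytosines. Gm29442 had 1.60%, 2.56% and 0.568% in STD and 5.22%, 5.64% and 7.03% in ENR over 11 cytosines, but only 5 of these were higher in ENR and 1 differed by 26.2 points. Gm42693 had 2.50% ± 1.03 in STD and 7.88% ± 1.75 in ENR over 7 cytosines, of which 6 were higher in ENR and 1 differed by 26.4 points. Tnfrsf25, which encodes a receptor of the tumour necrosis factor family, had 1.56% ± 0.979 and 5.46% ± 1.02 over 6 cytosines, of which 3 were higher in ENR, 2 were lower and 1 was equal. In each of these shores every ENR value lay outside the range of the STD values, which was the condition for naming them. Apart from 1810010H24Rik, Togaram2 and Gm23299, the differences ran from -7.69 to 5.39 points.

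**Figure D5:**
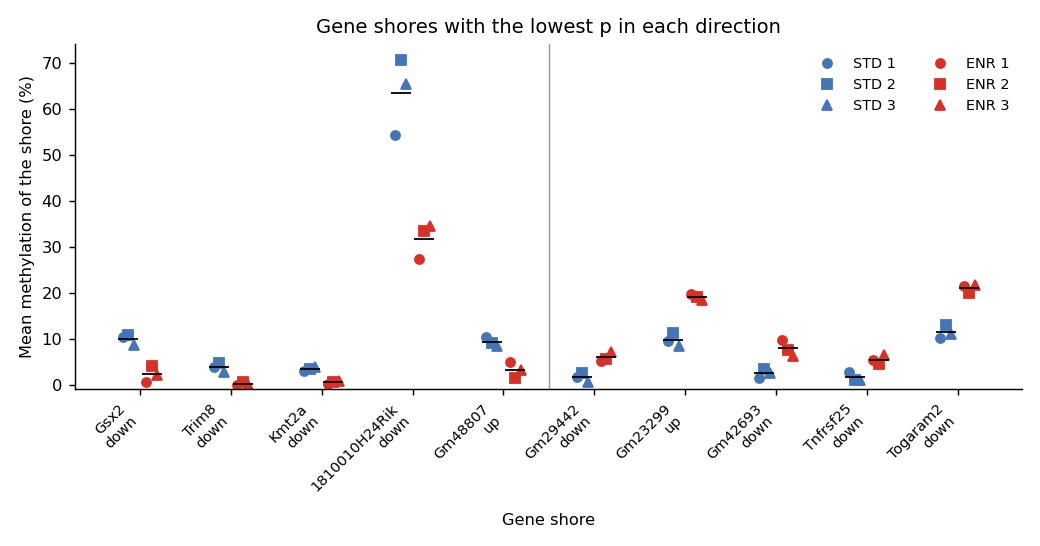
Mean methylation in percent (vertical axis) of the 10 named gene shores (horizontal axis, with the side of the start), 1 point per library with STD in blue and ENR in red and lines for the group means; the 5 shores left of the grey line were lower in ENR and the 5 right of it higher. Only 1810010H24Rik, at 63.4% in STD and 31.7% in ENR, lies far above the others.

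Individual genes departed widely from the mean difference between the sides. In 149 genes with at least 10 cytosines in each shore, the median gap was 0.809 points, and 122 genes had sides within 20 points of each other. At one end, Plekha6 had 78.1% (73.9 to 83.3% over the libraries) upstream and 18.6% (16.8 to 20.4%) downstream. Arhgef17, which encodes a guanine nucleotide exchange factor, had 77.1% and 25.4%. Ptpru, a receptor-type tyrosine phosphatase gene, had 56.9% in mainly coding sequence and 8.90% in an intron. Lrg1 had 54.7% and 7.18%. All its shore cytosines lay in coding exons, but those upstream lie ahead of their nearest Lrg1 start, and Plin5 also has a start nearby. At the other end, Adamts1 had 4.08% (1.66 to 7.01%) upstream and 73.7% (69.4 to 80.6%) downstream. Ccin, a gene known for its role in spermatids, had 25.7% and 94.2%, and its start region had 69.3%. Slc4a5, a bicarbonate transporter gene, had 28.1% and 96.3%. Krt18, an epithelial keratin gene, had 28.0% and 91.0%. In these 8 genes the ranges of the sides over the libraries did not overlap, but the genes were picked for the widest gaps over the same libraries. The shores of Arhgef17 (both sides), Plekha6 (downstream), Ptpru (upstream) and Slc4a5 (upstream) were spread over different starts of the gene. Between the housing groups the upstream shore of Krt18 had 22.8% in STD and 33.3% in ENR, with the other named sides closer together.

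Change with distance also differed between genes. In 145 shores of protein-coding genes with at least 10 cytosines both within and beyond 2 kb, the median change was 0.486 points, and 120 changed by at most 10 points. The largest rises were those of Fzd7, a Wnt receptor gene, from 13.4% (10.7 to 15.8%) to 49.5% (43.5 to 56.4%) downstream, and of Pax6, a transcription factor of neural stem cells, from 16.8% to 51.6% upstream. Kif26a rose from 1.79% to 26.5% upstream and the homeobox gene Six4 from 1.78% to 25.1% downstream. The largest falls were all downstream. Cacna1e, which encodes a voltage-gated calcium channel subunit, went from 57.2% (53.1 to 60.6%) to 7.55% (4.04 to 12.6%). Slc29a3, a nucleoside transporter gene, went from 53.6% to 14.9%, Gdnf from 38.6% to 1.25% and Zfp316 from 52.8% to 28.0%. The Gdnf values are those of 13 and 48 cytosines, some of which are in the windows printed above. Some of these changes pool different starts of a gene and do not run along 1 stretch of sequence. On chromosome 1, the Cacna1e cytosines within 2 kb lay at 154724005 to 154815497 and those beyond it at 154419053 to 154723696. Those of Pax6 and of the outer part of Kif26a were also spread over more than 1 start.

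Genes of dentate cell types had shores at very different levels, which are given as a description, since the files hold no expression values by which to check the tissue label. Over the 4055 genes with at least 5 shore cytosines the median was 25.9% and 44.0% were under 20%. Of 12 genes listed as marks of granule neurons 5 had that many, and 5 of these 5 were under 20%. The lowest and highest of them were the transcription factor genes Neurod2 (1.53%) and Prox1 (16.5%), the guidance gene Sema5a (1.60%) and the synaptic gene C1ql2 (13.3%). Prox1 was uneven between mice, with 19.7%, 14.4% and 21.6% in STD and 31.3%, 3.67% and 8.45% in ENR over 12 cytosines. Of 12 neural stem cell and fate genes 11 could be assessed, and 9 of these 11 were under 20%, from Neurog2 (1.78%) to Eomes (21.3%) and Pax6 (26.4%). Among 13 activity-regulated genes 6 of the 7 with enough cytosines were under 20%, with Junb (2.08%) and Egr4 (2.30%) lowest and Bdnf at 13.6%. The exception was the nuclear receptor gene Nr4a1, with 63.0%, which combined 85.0% upstream with 11.8% downstream.

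Marker genes of other cells held both extremes, with 3 or 4 assessed in each list of 10 to 12. The oligodendrocyte genes Mog (84.1%) and Opalin (93.2%), which encode proteins of myelin-forming cells, had methylated shores, whereas Olig2, a transcription factor of their lineage, had 1.18% over 52 cytosines. Among astrocyte genes, Sox9 had 1.49%, Slc1a2 26.5% and Aldh1l1 72.9%. Among microglia genes, C1qa had 16.5%, Csf1r 66.1% and Tmem119 80.2%. Genes that mark CA pyramidal neurons ran from Man1a (2.34%) to Cpne4 (39.0%) and Neurod6 (44.6%). Genes listed as DNA methylation machinery, which hold enzymes, readers and the Gadd45 adaptor proteins linked to demethylation, ran from Gadd45g (1.75%) and Gadd45b (3.18%) to Tet3 (32.2%) and Dnmt1 (82.4%), with 3 of the 6 assessed among 14 listed under 20%. No housekeeping gene of the list had 5 shore cytosines.

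Tet1, Neurod6 and Tmem119 are described next because the groups did not overlap in them, a choice made after their values were seen. Over all genes the groups did not overlap for 8.75%. Tmem119, a marker of microglia, had 89.5%, 85.9% and 89.7% in STD and 80.7%, 77.0% and 58.3% in ENR over 8 cytosines, and ENR replicate 3 was again the lowest. Neurod6 had 49.7%, 54.5% and 48.2% in STD and 40.8%, 37.4% and 36.9% in ENR over 5 cytosines. Tet1, which encodes an enzyme that oxidises methylcytosine, had 17.5% ± 1.09 and 16.03% ± 0.500 over 30 cytosines. Of the genes that the study named, some of which were picked from these mice and are no independent evidence, 6 of 10 had enough shore cytosines. In 4 of these 6 the mean was lower in ENR, against 56.1% of all genes. Ntf3, a neurotrophin gene, had 2.79% ± 0.609 in STD and 3.03% ± 0.506 in ENR, and Flt1, a receptor of vascular endothelial growth factor, had 9.45% ± 1.32 and 6.56% ± 2.49. Cux2, a homeobox gene, had 74.6% ± 6.23 and 70.1% ± 2.05, and Nfatc4, a calcium-regulated transcription factor gene, had 83.3% ± 5.68 and 84.3% ± 5.86. The widest difference in this list, singled out after its values were seen, was that of Tiam1, which encodes a guanine nucleotide exchange factor, with 31.0%, 27.8% and 27.04% in STD and 19.1%, 27.7% and 22.9% in ENR over 57 cytosines. The groups overlapped in all 6.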

How the data were processed

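The authors trimmed RRBS reads with Trim Galore and cutadapt, cutting 2 further bases from reads with adapter, aligned them to mm10 with Bismark, and filtered in methylKit for cytosines covered by 10 reads or more. The submitters' processing notes name Trim Galore 0.4.0, cutadapt 1.8.1, Bismark 0.16.1 and methylKit 1.5.2, whereas the study's methods give other versions of Trim Galore and Bismark. The deposited values are the percent of reads methylated at each cytosine and library, without read numbers, so no interval that needs depth is given. Each library was 1 mouse.

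From these values, distances to GENCODE M21 starts, CpG numbers and annotation were computed in Python 3.11.15. Gene shores (at least 3 sites) were means over the cytosines of 1 side of a gene. ENR was compared with STD over libraries by exact permutation tests, and across all cytosines and segments in R 4.3.3 with limma 3.58.1 (eBayes with trend, Benjamini-Hochberg adjustment over the whole table). On simulated data this fit recovered most large changes in segments, but at single cytosines it recovered none when few cytosines changed. Contrasts within libraries used exact sign-flip permutation tests, whose 64 sign patterns allow no p below 0.031. The authors' tests on read numbers were not repeated, because only percentages were used. Gene shores were named when they had at least 5 sites and groups that did not overlap, the 5 with the lowest limma p in each direction. For sides and for change with distance, the 4 genes at each end were named among those with at least 10 sites in both parts. From gene lists the 2 lowest and the 2 highest members were named, except for members that are not reported here. By rule, sequences were those of the first gene of each end of the sides and of the lowest p in each direction. Gsx2 had no window free of annotated UTRs and is not printed, and the windows of Gdnf, 1810010H24Rik and Togaram2 were chosen after their values were seen. The members and gene lists were chosen with earlier results of these data known.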

Additional observations from a re-analysis of the deposited data

How the results depend on the processing

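Leaving out each library in turn gave an upstream minus downstream gap of 7.51 to 7.69 points and an outer minus inner difference of 11.4 to 11.7 points. With 5 libraries the smallest exact sign-flip permutation p is 0.062, so these could not pass 0.05. With both libraries numbered 3 left out, an alternative chosen after seeing the data, these values were 7.75 and 11.9 points (exact permutation p = 0.125, the smallest for 4 libraries). Over sites of 20 to 80% only, a choice that holds all levels near the middle, they were 1.89 and 1.21 points, and at equal CpG number (chosen after seeing the data) 2.99 and 6.71 points. The ENR minus STD difference of the shore mean ran from -1.53 to 0.603 points without single libraries, the positive value being that without ENR replicate 3, and was -2.35 points over sites of 20 to 80% only and -0.0233 points after quantile normalization. The housing difference in outer minus inner ran from -0.571 to 0.200 points without single libraries, again above 0 without ENR replicate 3, and was 0.0424 points with each gene shore weighted the same and 0.226 points over sites of 20 to 80% only. The number of bins lower in ENR was 13 after quantile normalization, chosen after seeing the data, and 0 to 20 without single libraries. Shore sites over the limit of size numbered 4399 at 20 points, 311 at 40 points, 3612 by group medians, 959 with groups that did not overlap, 1186 outside CCGG (chosen after seeing the data) and 3031 to 3884 without single libraries, of which 40.4% to 73.5% were lower in ENR. The causes of these changes were not tested. limma called 0 shore sites and 0 gene shores under all settings run. At an unadjusted p under 0.05 it gave 1543 to 2987 shore sites (2.84 to 4.86%, against 1.98 to 3.91% of all sites). For gene shores it gave 213 to 507 (4.78 to 7.27%, against 3.31 to 5.17% of all segments or tiles). The settings tested unlike numbers of features. For the 10 named gene shores the smallest limma adjusted p was 0.669. Their sign could not turn when a library was left out, because they were named for groups that did not overlap.

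The replicate numbers did not pair the libraries throughout. Deviations of libraries with the same number correlated by 0.0602, 0.0348 and 0.135 over all sites. In shores the libraries numbered 3 correlated by 0.108, the highest of all pairs, whereas STD replicate 1 correlated best with ENR replicate 2. With the number as a replicate block, the difference of the shore mean was -0.713 points (exact sign-flip permutation test, p = 0.25, the smallest for 3 pairs), that of the gap -0.234 points and that of the outer minus inner difference -0.225 points. limma with the block called 0 sites and 0 gene shores. At an unadjusted p under 0.05 it gave 1926 shore sites (3.14%, against 2.57% of all sites) and 485 gene shores (6.95%, against 4.71% of all segments).

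Read numbers were not used, so sites with few and with many reads weighed the same, and 3 libraries per group allow no exact permutation p below 0.1.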

Other observations

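The X chromosome was kept apart from the shores above. In these female mice its 1707 cytosines at the same distances had 53.3%, 51.6% and 46.2% in STD and 52.6%, 51.0% and 41.4% in ENR, a mean of 49.3% ± 4.63, against 30.1% ± 1.75 on the autosomes. Upstream shores had 57.2% ± 3.95 and downstream shores 44.03% ± 5.16, so the order of the sides was that of the autosomes. Island-like X shores had 30.2% ± 3.77, against 11.3% ± 0.432 on the autosomes, and island-like sites within 1 kb of an X-linked start had 26.8% ± 5.06, against 2.60% ± 0.0799. In female cells 1 X chromosome is inactive, and the CpG-rich starts of that copy are usually methylated. STD replicate 3 and ENR replicate 3 were the lowest libraries in each of these X classes, and their part in the spread was not tested.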
